A study of Mus musculus with 16 samples.

Results

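Of the 1881 mouse miRNAs on the array, 8 are miRNAs of white blood cells and of the inflammatory response, chosen by name and whatever their values: mmu-miR-223-3p, mmu-miR-142a-3p, mmu-miR-142a-5p, mmu-miR-150-5p, mmu-miR-342-3p, mmu-miR-146a-5p, mmu-miR-146b-5p and mmu-miR-155-5p. The study asked which miRNAs of mouse serum change with age. Serum of male mice aged 4, 8, 36 and 58 weeks was measured, with 4 mice at each age. The strain is not given in the sources used here, and the labels name no treatment, allele or other difference between the ages. Blood was taken from the heart into serum-separator tubes, and 1 ng of each serum's RNA, labelled with Cy3, was read on its own Agilent miRNA microarray, so each mouse gave 1 array and 1 value per miRNA.

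A miRNA is a short RNA that guides a silencing complex to messenger RNAs, mainly through its seed, bases 2 to 8 from the 5′ end. Blood cells and organs release miRNAs into plasma, in vesicles and bound to proteins, so serum holds no cells but carries RNA from many cell types. miR-223 is abundant in neutrophils and other myeloid cells, and platelets carry it too. miR-142 is made in nearly all cells of the blood lineage, miR-150 is abundant in mature B and T lymphocytes, and miR-342 is expressed in several leukocyte types. miR-146a, miR-146b and miR-155 are induced by inflammatory signals. miR-146a is a target of NF-kB that represses Traf6 and Irak1, and miR-155 is processed from a transcript induced in activated lymphocytes and macrophages. More of a miRNA per cell, more cells that release it and slower loss from serum cannot be told apart in these measurements.

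The mature sequences are shown because the array tells these miRNAs apart by sequence alone, and because a seed groups miRNAs that can share targets. They come from RefSeq on GRCm38.p6, which held 7 of the 8, with the seed in capitals; miR-150-5p is named only.
mmu-miR-223-3p: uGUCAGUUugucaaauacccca
mmu-miR-142a-3p: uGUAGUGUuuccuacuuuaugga
mmu-miR-142a-5p: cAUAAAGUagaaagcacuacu
mmu-miR-342-3p: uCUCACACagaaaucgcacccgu
mmu-miR-146a-5p: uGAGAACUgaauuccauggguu
mmu-miR-146b-5p: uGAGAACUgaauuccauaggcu
mmu-miR-155-5p: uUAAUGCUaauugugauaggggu

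The 7 sequences carried 6 distinct seeds, and only miR-146a-5p and miR-146b-5p shared one. These 2 miRNAs are identical at 20 of 22 positions and differ by G18A and U21C, counted from the 5′ end with the miR-146a-5p base first. They come from separate genes, Mir146 at chr11:43374435-43374456 on the minus strand, where the annotation holds no other gene, and Mir146b at chr19:46342790-46342811 on the plus strand, inside the long noncoding RNA Gm36493. Both arms of miR-142a come from 1 hairpin of 64 bases, Mir142 at chr11:87756864-87756927 on the plus strand, with the 5p arm at chr11:87756867-87756887 and the 3p arm at chr11:87756903-87756925; the antisense gene Mir142b overlaps it. miR-223-3p lies at chrX:96242884-96242905 on the plus strand within the span of the long noncoding RNA F630028O10Rik, and miR-155-5p at chr16:84714143-84714165 on the plus strand within its host gene Mir155hg. The arm miR-342-3p lies at chr12:108658680-108658702 on the plus strand within the protein-coding gene Evl.

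A few facts of the arrays bear on every value that follows. The 4-week and 8-week arrays were on 1 slide and the 36-week and 58-week arrays on another, so in any comparison across that line the slide and the age cannot be told apart. The spots that serve as negative controls varied more on 3 arrays than on the rest. Replicate 4 of 36 weeks had an SD of 59.3 over these spots, replicate 1 of 4 weeks one of 19.1 and replicate 4 of 4 weeks one of 7.45, while none of the remaining 13 arrays exceeded 4.45. The 75th percentile of the signal over the 24 miRNAs detected on all 16 arrays averaged 9.99 ± 0.33, 9.51 ± 0.34, 9.45 ± 0.40 and 8.96 ± 0.22 on the log2 scale at 4, 8, 36 and 58 weeks (SD, n = 4 each). Each array was divided by this percentile, which was lowest at 58 weeks, so values are relative to those 24 miRNAs. Levels below are log2 of this scaled signal, with values under a floor of 1.92 set to it. The measure of haemolysis, log2 miR-451a minus log2 miR-23a-3p, averaged 3.35 ± 0.74, 2.89 ± 0.62, 3.26 ± 0.90 and 2.73 ± 0.24 at the same 4 ages.

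Serum carried a measurable signal of 5 of the 8 miRNAs. miR-223-3p was detected on 16 of 16 arrays, where detection is the scanner software's own call. miR-142a-3p, miR-150-5p and miR-342-3p were each detected on 15, on all but 36-week replicate 4. miR-146a-5p was detected on 12 arrays and missed on 4-week replicates 1 and 4 and 36-week replicates 3 and 4. A miRNA was tested where at least 3 of the 4 arrays of some age detected it, and these 5 were among the 285 that met this rule. miR-142a-5p, miR-146b-5p and miR-155-5p were detected on 0 of 16 arrays and were not tested. Before scaling, their background-subtracted signal reached at most 1.55, -0.832 and 4.64 on any array. On the array platform each of the 8 miRNAs had 2 probes of 15 spots each, so the 3 undetected ones were read as often as the others. Within the miR-142a hairpin the 3p arm was thus detected on 15 arrays and the 5p arm on none, and of the pair that shares a seed miR-146a-5p was detected on 12 and miR-146b-5p on none. This sets no bound on their level in serum, since no standard of known amount ties the signal to a number of molecules.

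miR-223-3p, the myeloid miRNA, had means at 4, 8 and 36 weeks that differed by less than the spread between mice, and its highest mean at 58 weeks. Its log2 scaled signal was 8.18, 7.76, 8.01 and 8.08 in the 4-week mice and 8.45, 8.13, 9.01 and 6.35 in the 8-week mice. The 36-week mice gave 9.18, 8.57, 6.10 and 8.35 and the 58-week mice 8.79, 8.93, 9.05 and 8.87. The 58-week mice lay within a narrow band that sat above every 4-week mouse, while 1 mouse at 8 weeks (replicate 4) and 1 at 36 weeks (replicate 3) lay far below the rest. The means were 8.01 ± 0.18, 7.99 ± 1.15, 8.05 ± 1.35 and 8.91 ± 0.11 (SD, n = 4 each).

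miR-142a-3p, the pan-leukocyte miRNA, had the smallest unadjusted p of the 5 for a trend with age. It read 5.57, 6.08, 4.81 and 5.55 in the 4-week mice and 4.68, 5.84, 5.10 and 3.87 in the 8-week mice. It read 6.78, 5.89, 5.84 and 5.05 in the 36-week mice, the last not detected, and 6.53, 6.52, 6.29 and 6.57 in the 58-week mice. Every 58-week mouse lay above every 4-week and every 8-week mouse, but the 36-week mouse at 6.78 lay above all of them. The means at 4, 8, 36 and 58 weeks were 5.50 ± 0.52, 4.87 ± 0.82, 5.89 ± 0.71 and 6.48 ± 0.13.

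The lymphocyte miRNA miR-150-5p overlapped between all pairs of ages. Its values were 6.38, 5.14, 4.57 and 4.71 at 4 weeks and 5.43, 4.61, 5.66 and 3.11 at 8 weeks. They were 5.72, 5.14, 5.41 and 7.86 at 36 weeks and 5.73, 5.98, 5.61 and 6.07 at 58 weeks. The highest value of all, 7.86 in 36-week replicate 4, was not called detected on that array, the one of most background. Its scaled signal there was 233 before log2 was taken, and the lowest one of any miRNA called detected on the array was 202. Means were 5.20 ± 0.82, 4.70 ± 1.15, 6.03 ± 1.24 and 5.85 ± 0.22 at the 4 ages, and 5.42 ± 0.29 at 36 weeks without that array (n = 3).

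miR-342-3p, which is expressed in several leukocyte types, moved with miR-150-5p over the arrays. Its values were 7.54, 6.56, 5.99 and 5.85 at 4 weeks and 6.70, 6.43, 6.71 and 5.54 at 8 weeks. They were 6.98, 6.50, 6.01 and 7.74 at 36 weeks, the last not detected, and 7.39, 7.30, 7.38 and 7.59 at 58 weeks. The 58-week mice all lay above the 8-week mice. Among the 4-week and 36-week mice, only the arrays of high background, 4-week replicate 1 and 36-week replicate 4, reached or passed their range. The means were 6.48 ± 0.77, 6.34 ± 0.55, 6.81 ± 0.74 and 7.41 ± 0.12.

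miR-146a-5p, the NF-kB-induced miRNA, had the widest gap between the oldest and the youngest mice, and part of that gap rests on arrays without a detected signal. Its values were 4.43 and 3.91 in the 2 detected 4-week mice, with the other two at the floor, and 3.76, 4.10, 3.58 and 3.52 at 8 weeks. The 36-week mice gave 5.08 and 4.65, with the other two at the floor, and the 58-week mice 5.31, 4.09, 5.82 and 5.80. At 58 weeks 3 mice lay above every younger mouse, and replicate 2, at 4.09, lay below 1 of the 4-week mice, 1 of the 8-week mice and 2 of the 36-week mice. The means were 3.05 ± 1.32, 3.74 ± 0.26, 3.39 ± 1.71 and 5.25 ± 0.81, with the floor counted as a value.

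**Figure D1:**
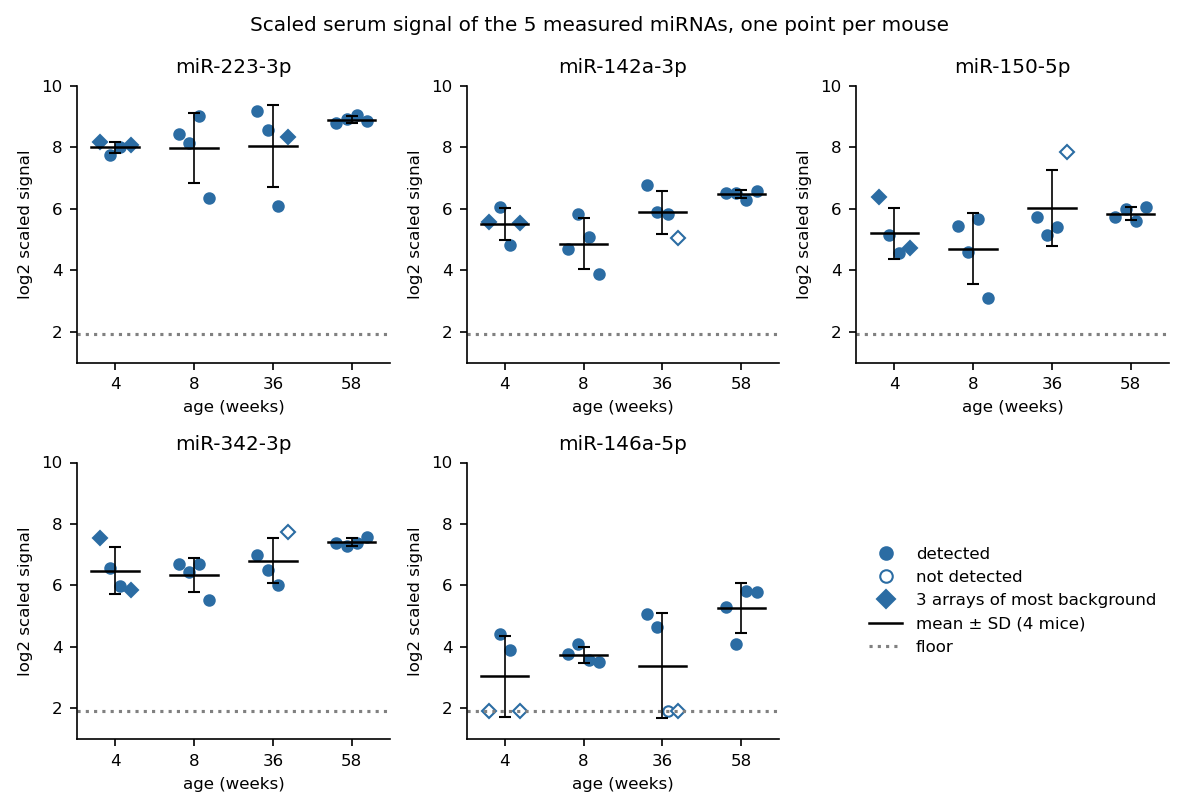
Log2 scaled signal (vertical axis) of the 5 measured miRNAs at 4, 8, 36 and 58 weeks (horizontal axis), 1 point per mouse, with bars for mean ± SD (n = 4) and a dotted line at the floor of 1.92; open points were not detected and diamonds mark the 3 arrays of most background. The 58-week points of miR-223-3p, miR-142a-3p and miR-342-3p form a narrow band, and 4 points of miR-146a-5p lie at the floor.

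For miR-223-3p, miR-142a-3p, miR-150-5p and miR-342-3p the spread between mice was smallest at 58 weeks, and for miR-146a-5p at 8 weeks. Over the 5 miRNAs the median SD between mice was 0.768, 0.823, 1.24 and 0.125 at 4, 8, 36 and 58 weeks, on the log2 scale. Over all 116 miRNAs detected on at least 12 arrays, the 5 included, it was 0.768, 0.576, 1.53 and 0.347, so the 58-week spread was the smallest of the 4 ages there as well. At 58 weeks 1.72% of those 116 had a smaller SD than miR-223-3p, 3.45% than miR-342-3p, 4.31% than miR-142a-3p, 25% than miR-150-5p and 88.8% than miR-146a-5p. A single 8-week mouse, replicate 4, was the lowest of its age for all 5 miRNAs. This array also had the highest 75th percentile (9.93) and the highest haemolysis measure (3.65) of the 8-week arrays, and an SD of negative controls of 1.95. Before scaling it was not the lowest for miR-146a-5p, at 15.7 against 9.31 in replicate 3.

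In the comparison of 58 with 4 weeks, which spans the most age and crosses slides, all 5 means were higher at 58 weeks and none of the differences passed the test. The log2 differences were 2.21 ± 0.80 for miR-146a-5p, 0.98 ± 0.49 for miR-142a-3p, 0.93 ± 0.49 for miR-342-3p, 0.90 ± 0.64 for miR-223-3p and 0.64 ± 0.68 for miR-150-5p (± SE, 4 mice at each age). As folds these are 4.62, 1.97, 1.91, 1.87 and 1.56. The adjusted p from limma, over all 285 tested miRNAs, was 0.574 for miR-146a-5p (unadjusted p = 0.0141) and between 0.864 and 0.998 for the others. Of the 285, 1 passed (0.351%) and 13 had an unadjusted p under 0.05, against 0 and 1 of the 5. Every 58-week mouse lay above every 4-week mouse for 2 of the 5, miR-223-3p and miR-142a-3p, against 11 of the 285 (3.86%), and below for 0 of the 5, against 8 (2.81%). The median difference was 0.93 over the 5, against -0.0031 over the 285 and -0.02 over the 116 often detected ones. Of those 116, 93.1% had a smaller difference than miR-223-3p, 95.7% than miR-142a-3p, 84.5% than miR-150-5p, 94.0% than miR-342-3p and 98.3% than miR-146a-5p. These values depend on the arrays of most background, which include both 4-week arrays with miR-146a-5p at the floor. Without these 3 arrays, which leaves 2 mice at 4 weeks, miR-146a-5p differed by 1.09 (adjusted p = 0.264, limma), and by 0.25 without scaling as well. The other 4 then differed by 0.99 to 1.14, and 59.6% to 64.6% of the 285 had a smaller difference than each of the 5, against 91.9% to 99.3% with all arrays.

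Between 58 and 8 weeks all 5 means were again higher at 58 weeks, and again none passed. miR-142a-3p differed by 1.61 ± 0.49, a 3.05-fold difference, with an unadjusted p of 0.00531 that ranked 3 among the 285 from the smallest, and an adjusted p of 0.315 (limma). miR-146a-5p differed by 1.51 ± 0.80, miR-150-5p by 1.14 ± 0.68, miR-342-3p by 1.07 ± 0.49 and miR-223-3p by 0.92 ± 0.64, each with an adjusted p of 0.408. No miRNA of the 285 passed (0%), and 15 had an unadjusted p under 0.05, among them miR-142a-3p and miR-342-3p. The 58-week mice lay wholly above the 8-week mice for these 2 of the 5, against 22 of the 285 (7.72%), and wholly below for 0 of the 5, against 10 (3.51%). Here the typical miRNA was also higher at 58 weeks: the median was 1.14 over the 5, 0.71 over the 285 and 0.52 over the 116. Relative to those 116, miR-142a-3p had a larger difference than 93.1% of them and miR-223-3p than 69.8%. Without 8-week replicate 4 the difference of miR-223-3p was 0.38 and that of miR-150-5p 0.61, and without 8-week replicate 3 they were 1.26 and 1.46. Both comparisons use the same 58-week mice, so their directions are not independent.

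The 58-week and 36-week mice were measured on 1 slide, and there too no difference passed. Between these ages miR-146a-5p differed by 1.86 ± 0.80 (unadjusted p = 0.0336, adjusted p = 0.717, limma), with 2 of the 4 arrays at 36 weeks at the floor. The differences were 0.86 ± 0.64 for miR-223-3p, 0.60 ± 0.49 for miR-342-3p, 0.59 ± 0.49 for miR-142a-3p and -0.19 ± 0.68 for miR-150-5p, with adjusted p from 0.717 to 0.915. Called were 0 of the 5 and 0 of the 285 (0%), with 1 and 5 at an unadjusted p under 0.05. Older mice lay wholly above younger ones for 0 of the 5, against 11 of the 285 (3.86%), and wholly below for 0, against 1 (0.351%). The median was 0.60 over the 5, -0.52 over the 285 and 0.21 over the 116, and without the arrays of most background it was 0.92 over the 5 and 0.060 over the 285. Single 36-week mice set much of these values. Without replicate 4 miR-150-5p differed by 0.42 and miR-142a-3p by 0.31, and without replicate 3 miR-223-3p differed by 0.21 and miR-342-3p by 0.34. Other omissions moved them the other way. Without replicate 4 miR-342-3p differed by 0.92, without replicate 1 miR-223-3p by 1.24 and miR-142a-3p by 0.89, and without replicate 2 miR-150-5p by -0.48.

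The 8-week and 4-week mice, the other pair on 1 slide, did not differ in any of the 5 beyond the spread between mice. The log2 differences, 8 minus 4 weeks, were 0.70 ± 0.80 for miR-146a-5p, -0.02 ± 0.64 for miR-223-3p, -0.14 ± 0.49 for miR-342-3p, -0.50 ± 0.68 for miR-150-5p and -0.63 ± 0.49 for miR-142a-3p. Adjusted p lay between 0.536 and 0.997 (limma). Called were 0 of the 5 and 0 of the 285 (0%), with 0 and 6 at an unadjusted p under 0.05, and no miRNA of the 285 had all 8-week mice above all 4-week mice (0%), while 11 had them below (3.86%), none of them among the 5. Without 8-week replicate 4, miR-223-3p differed by 0.52 and miR-150-5p by 0.03, and without 8-week replicate 3 by -0.36 and -0.82.

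**Figure D2:**
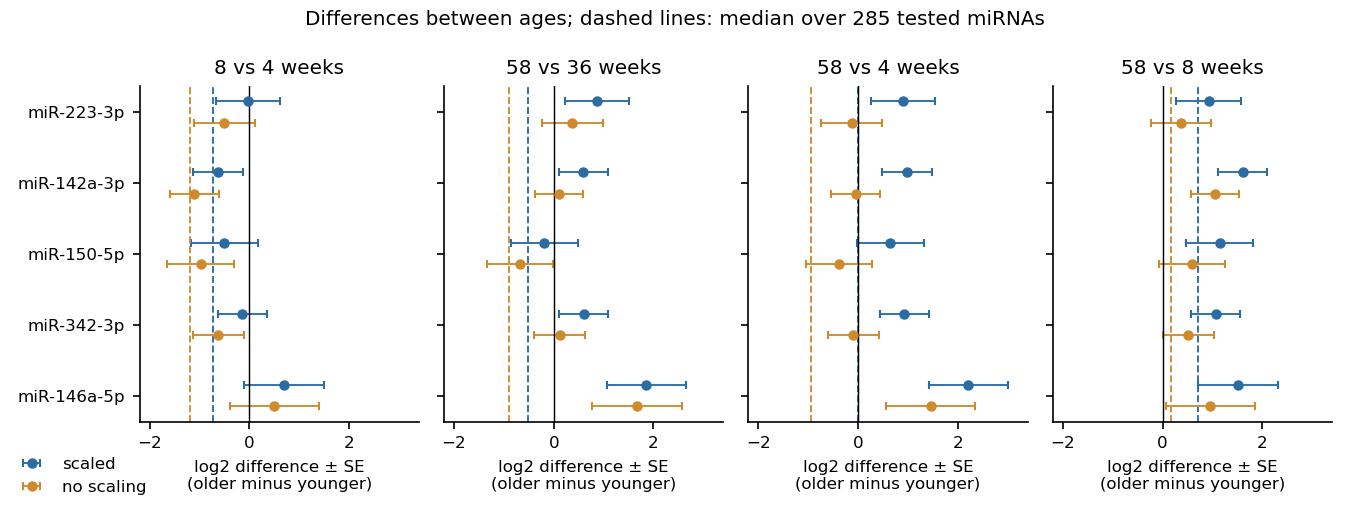
Log2 difference between ages, older minus younger (horizontal axis, ± SE, 4 mice at each age), of the 5 measured miRNAs with scaling (blue) and without it (orange) in 4 pairs of ages; dashed lines show the median over the 285 tested miRNAs. Between 58 and 4 weeks the scaled points of miR-223-3p, miR-142a-3p, miR-150-5p and miR-342-3p lie above 0 and the unscaled ones below it, and all 10 points lie to the right of their dashed line.

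Over all 4 ages the slope was positive for each of the 5, and no slope passed the test. Per doubling of age the log2 signal changed by 0.39 ± 0.19 for miR-146a-5p, 0.29 ± 0.12 for miR-142a-3p, 0.27 ± 0.15 for miR-150-5p, 0.23 ± 0.11 for miR-342-3p and 0.18 ± 0.14 for miR-223-3p (± SE, 16 arrays). The smallest unadjusted p was 0.0233, for miR-142a-3p, with an adjusted p of 0.511 (limma), and the other adjusted p were 0.525. Of the 285 tested miRNAs 1 had a slope that passed (0.351%) and 165 (57.9%) had a positive slope, with a median of 0.12, against a median of 0.27 over the 5. The test for any difference among the 4 ages called 0 of the 5 and 1 of the 285 (0.351%); miR-142a-3p had the smallest p of the 5 (unadjusted p = 0.0345, adjusted p = 0.477), the only one of them under 0.05, as were 13 of the 285.

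The sign between 58 and 4 weeks depended on the scaling for 4 of the 5. Before scaling, the signal of miR-223-3p was 371, 291, 396 and 298 at 58 weeks and 414, 231, 375 and 506 at 4 weeks, so the ages overlapped. For miR-142a-3p it was 77.6, 55.0, 58.4 and 60.6 at 58 weeks, against 67.7, 72.1, 40.7 and 87.4 at 4 weeks, again with overlap. Without scaling, the log2 differences were -0.13 for miR-223-3p, -0.05 for miR-142a-3p, -0.38 for miR-150-5p, -0.10 for miR-342-3p and 1.46 for miR-146a-5p, while the median over the 285 was -0.95. Relative to that median they were 0.83, 0.90, 0.57, 0.85 and 2.41. The turned signs also needed the arrays of most background: without scaling and without those 3 arrays the differences were 0.19, 0.20, 0.16, 0.31 and 0.25, in the same order of miRNAs. Without scaling, the number of the 5 whose 58-week mice lay wholly above the 4-week mice was 0, against 1 of the 285 (0.351%). Between 58 and 8 weeks it was 1, miR-142a-3p, against 4 (1.4%), between 58 and 36 weeks 0, against 2 (0.702%), and between 8 and 4 weeks 0, against 0 (0%). miR-142a-3p had 77.6, 55.0, 58.4 and 60.6 at 58 weeks, against 28.1, 54.3, 26.7 and 19.95 at 8 weeks. Without scaling these ages, on different slides, were thus barely apart, with 55.0 just above 54.3.

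**Figure D3:**
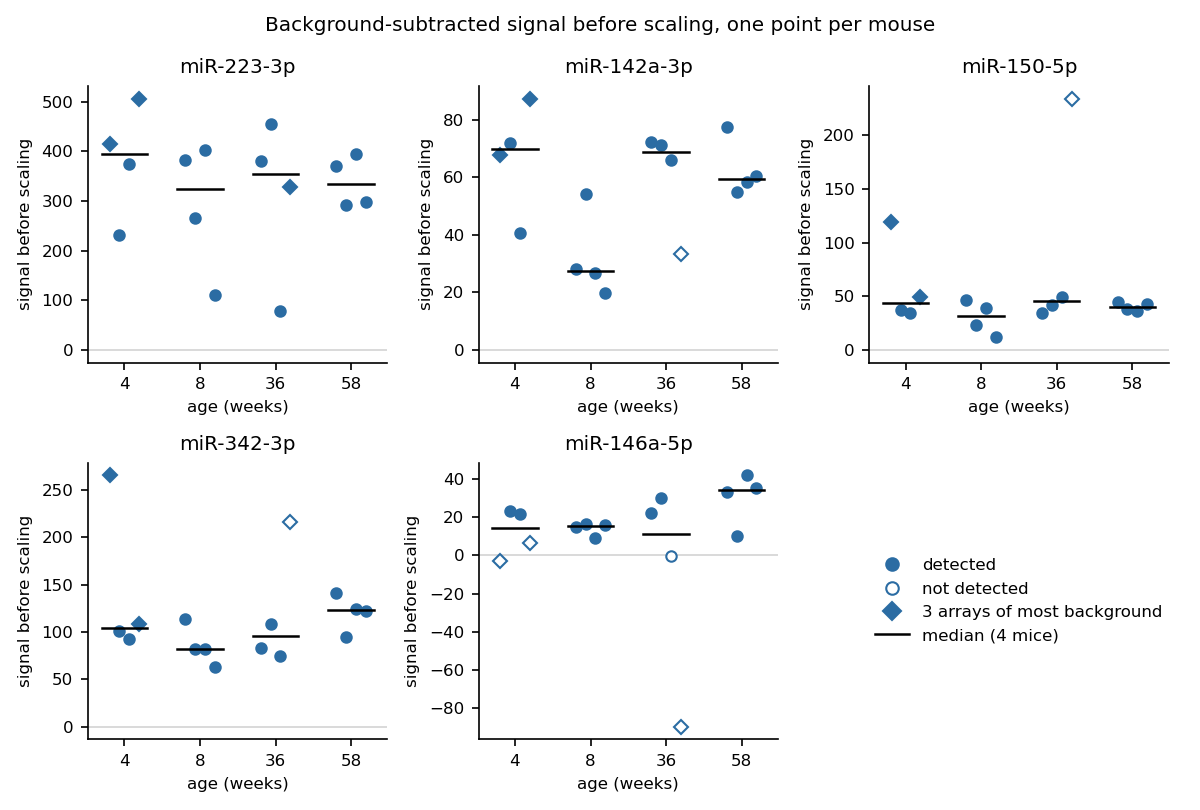
Background-subtracted signal before scaling (vertical axis, linear, arbitrary units) of the 5 measured miRNAs at 4, 8, 36 and 58 weeks (horizontal axis), 1 point per mouse with a line at the median; open points were not detected and diamonds mark the 3 arrays of most background. The 58-week and 4-week points overlap in every panel, and the 36-week array of most background gives the highest point of miR-150-5p and the lowest of miR-146a-5p.

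Leaving out the 3 arrays of most background raised the number of calls among the 5 and among all miRNAs alike. In the 13 arrays that remained, the slope with age passed for 3 of the 5, miR-142a-3p (0.40 per doubling, adjusted p = 0.0314, limma), miR-342-3p (0.26, adjusted p = 0.0375) and miR-150-5p (0.30, adjusted p = 0.0497). So did that of 156 of the 285 (54.7%) in either direction. Positive slopes that passed, as these 3 were, numbered 109 of the 285 (38.2%). With scaling removed as well, 0 of the 5 and 54 of the 285 (18.9%) passed, and 2 of the 285 (0.702%) did so with a positive slope. In the same 13 arrays, with scaling, 0 of the 5 and 35 of the 285 (12.3%) passed between 58 and 4 weeks. Of the 285, 2 (0.702%) passed there as higher at 58 weeks. Between 58 and 8 weeks 0 of both (0%) passed. Weighting each array by its precision in place of leaving any out gave a slope that passed for 4 of the 5, all but miR-223-3p, and all 4 were positive. It passed for 187 of the 285 (65.6%), and with a positive slope for 132 (46.3%), though the weights did not fully converge.

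With slide as a term in the fit, which leaves only the steps from 4 to 8 and from 36 to 58 weeks, 0 of the 285 slopes passed. The slopes were then 1.34 ± 0.68 for miR-146a-5p, 0.39 ± 0.53 for miR-223-3p, 0.19 ± 0.41 for miR-342-3p, -0.15 ± 0.43 for miR-142a-3p and -0.43 ± 0.54 for miR-150-5p (± SE). The last 2 were opposite in sign to those without the term. On the 13 arrays of low background, also 0 of the 285 passed with this term. The slope of miR-146a-5p was then 0.49 ± 0.66, against 1.34 with all arrays. The slopes were 0.59 ± 0.63 for miR-223-3p, 0.55 ± 0.37 for miR-342-3p, -0.18 ± 0.43 for miR-142a-3p and 0.14 ± 0.46 for miR-150-5p. For miR-142a-3p the positive slope over the 4 ages was thus not seen with this term. Its SE there, 0.43 in both fits, was larger than the slope, so the sign within slides is not settled.

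**Figure D4:**
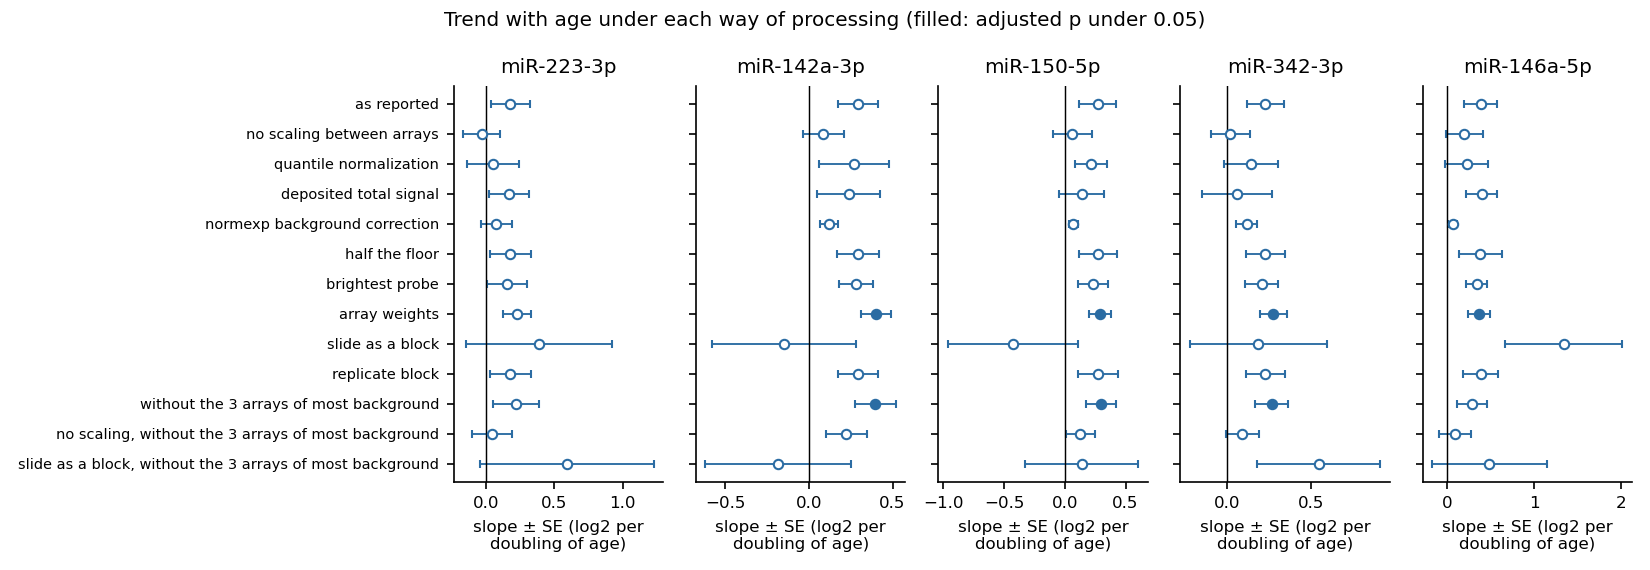
Slope of log2 signal per doubling of age (horizontal axis, ± SE) of the 5 measured miRNAs under each way of processing the data (one line each), filled where the adjusted p is under 0.05. Filled points appear with array weights and without the 3 arrays of most background, and the widest bars are those with slide as a block.

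Both probes of each measured miRNA gave the same direction between 58 and 4 weeks. The log2 differences by probe were 0.91 and 0.90 for miR-223-3p, 0.98 and 0.96 for miR-142a-3p, 0.53 and 0.73 for miR-150-5p, and 0.88 and 0.97 for miR-342-3p. For miR-146a-5p they were 1.85 by probe A_54_P2317, which was above the floor on 15 arrays, and 0.67 by A_54_P2318, which was above it on 4. The miR-146a-5p signal is therefore mostly that of 1 probe.

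**Figure D5:**
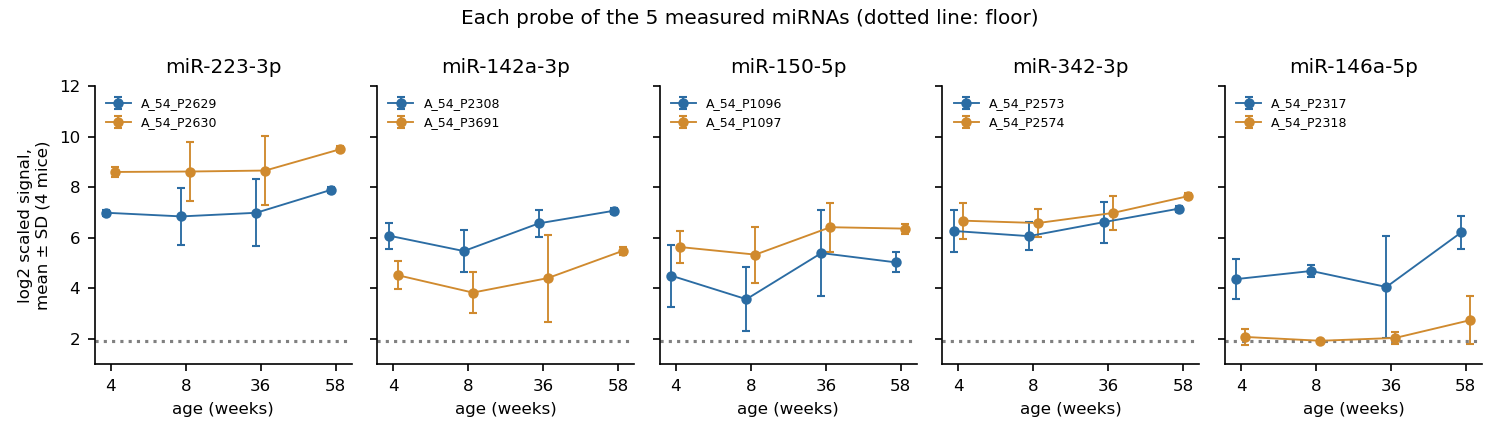
Log2 scaled signal (vertical axis, mean ± SD, 4 mice) of each probe of the 5 measured miRNAs at 4, 8, 36 and 58 weeks (horizontal axis), with a dotted line at the floor. The 2 probes of a miRNA both have their highest mean at 58 weeks except those of miR-150-5p, and A_54_P2318 of miR-146a-5p stays near the floor.

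How closely the 5 varied together over the mice depended on the arrays of most background. As a description, with arrays that share slide, scaling and background, Pearson's r of log2 signal between miR-150-5p and miR-342-3p was 0.855 (Spearman's rho 0.944), and 0.842 on the 13 arrays of low background. Each of the other 9 pairs had a lower r, between -0.12 for miR-150-5p with miR-146a-5p and 0.678 for miR-223-3p with miR-342-3p. On the 13 arrays all 10 pairs had a positive r, between 0.367 for miR-150-5p with miR-146a-5p and 0.842. There the r of miR-146a-5p with miR-342-3p was 0.746, against 0.281 on all 16, and that of miR-142a-3p with miR-150-5p was 0.765, against 0.381.

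By Pearson's r, the miRNA most similar to each of the 5 was one outside the 8, while by Spearman's rho miR-150-5p and miR-342-3p were closer to each other than to any of the nearest miRNAs named here. Among the other 115 miRNAs detected on at least 12 arrays, the most like miR-223-3p over the 16 arrays were miR-23a-3p (r = 0.813), miR-21a-5p (0.787) and miR-192-5p (0.733). Those most like miR-142a-3p were miR-21a-5p (0.835), miR-92a-3p (0.714) and miR-192-5p (0.705), and those most like miR-146a-5p were miR-19b-3p (0.745), miR-375-3p (0.727) and miR-130a-3p (0.688, and 0.346 on the 13 arrays). For miR-150-5p they were miR-10b-5p (0.918), miR-125a-5p (0.899) and miR-10a-5p (0.892), and for miR-342-3p miR-205-5p (0.910), miR-192-5p (0.883) and miR-150-5p (0.855). The median r over all 115 lay between -0.10 for miR-150-5p and 0.22 for miR-146a-5p.

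The opposite arms of the same hairpins were mostly not seen. Of 6 partner arms (miR-223-5p, miR-150-3p, miR-146a-3p, miR-146b-3p, miR-155-3p and miR-342-5p) 1 was detected, miR-150-3p, on 8 arrays, with a slope of -0.03 per doubling of age. Its means were 2.05 and 1.98 at 4 and 8 weeks, and all its values at 36 and 58 weeks were at the floor of 1.92. This slope therefore says little about its course with age. A list of 10 other miRNAs of immune signalling had 5 that were tested: 2 had a positive and 3 a negative slope, and 0 of the 5 passed. miR-181b-5p, of the family that tunes T-cell receptor signalling, had a slope of -0.53 (unadjusted p = 0.00224, adjusted p = 0.159, limma) and miR-181a-5p one of -0.37 (adjusted p = 0.525). Both were detected on 2 arrays at 4 weeks and 3 at 8 weeks, and on 0 at 36 and at 58 weeks. Detection thus split by slide, and slide and age cannot be told apart here. The means of miR-181b-5p were 4.32 ± 1.56, 2.55 ± 0.46, 1.92 ± 0 and 2.04 ± 0.23 at 4, 8, 36 and 58 weeks (SD). Those of miR-181a-5p were 3.84 ± 1.85, 2.45 ± 0.52, 2.29 ± 0.50 and 2.08 ± 0.31. From 8 weeks on both were at or near the floor of 1.92, so these slopes rest mainly on the 4-week arrays, where 2 of 4 detected them. miR-21a-5p, which is raised in many inflamed tissues and also abundant in platelets, had a slope of 0.24 (adjusted p = 0.525), and miR-125a-5p one of 0.25. The other 5 of the list, miR-132-3p, miR-147-3p, miR-9-5p, let-7e-5p and miR-99b-5p, were detected on 0 arrays.

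Summed scaled levels of miRNAs that mark other sources were compared by age as a description, and the sums were not tested. The summed signal of 5 platelet and endothelial miRNAs ranged over 8.92 to 9.59 at 4 weeks, 8.26 to 9.09 at 8 weeks, 7.73 to 9.93 at 36 weeks and 9.63 to 9.87 at 58 weeks on the log2 scale. The 58-week mice thus lay above the 4-week and 8-week mice, which were on the other slide, with 9.63 just above 9.59. Of this list 4 were tested, with 3 of 4 higher and 1 lower in 58-week than in 4-week mice. The lower one, miR-199a-3p, had the widest difference of the list, -2.42 between 58 and 4 weeks (adjusted p = 0.114, limma), while miR-126a-3p differed by 0.11, miR-24-3p by 0.053 and miR-21a-5p by 0.93; miR-126a-5p was detected on 0 arrays. Most of the sum at 58 weeks was miR-21a-5p, with a mean of 9.36 against 9.77 for the sum. Since platelets also carry miR-223, the part of platelet RNA in the miR-223-3p values was not tested. The summed signal of 5 erythrocyte miRNAs ranged over 12.3 to 13.0 at 4 weeks, 11.6 to 12.4 at 8 weeks, 11.7 to 12.6 at 36 weeks and 12.1 to 12.9 at 58 weeks, with overlap between 58 and 4 weeks. miR-451a, miR-486a-5p and miR-92a-3p were detected on all 16 arrays. Liver miRNAs summed to 5.49 to 10.3, 4.69 to 8.62, 5.97 to 8.95 and 7.40 to 7.98 at the 4 ages, and muscle miRNAs to 6.38 to 8.33, 5.77 to 7.94, 7.83 to 9.83 and 6.22 to 8.16, with miR-206-3p detected on none.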

How the data were processed

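The authors deposited 1 scanner table for each array, written by Agilent Feature Extraction 11.5 per the submitters' processing notes, and by 11.5.1.1 per the file headers. Deposited values used here are spot intensity after background subtraction, a total intensity for each miRNA, and calls of detection. The headers record no step that scales arrays to each other. No spot was saturated, and 2.32% to 4.48% of miRNA spots carried an outlier flag and were left out.

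The mean intensity of a probe's spots was averaged over a miRNA's probes. Each array was divided by its 75th percentile over 24 miRNAs that all 16 arrays detected. Values under 3.79, the median of the arrays' lowest detected scaled signals, were set to it before log2 was taken. Tests covered the miRNAs that at least 3 of 4 arrays of an age detected, 285 of the 572 detected anywhere. Means by age, 4 pairs of ages and the slope on log2 of age in weeks were fitted on all 16 arrays with limma 3.58.1 (lmFit, eBayes) in R 4.3.3, and p-values were adjusted over the 285 by Benjamini and Hochberg's method, with a threshold of 0.05. The scripts were tested on simulated data. The number of arrays limits the precision.

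Members, lists, tests and the left-out arrays were chosen with earlier results of these data known. All 8 members are named whatever their values. Of other miRNAs, the text names the partner arms and other immune miRNAs, with values for up to 4 of each by smallest p of the slope, the 3 nearest by Pearson's r, and members of the marker lists, whose choice followed no rule on values. Alternatives were no scaling, normexp with an offset of 50 on the median spot signal followed by quantile normalization, quantile normalization alone, the total signal as deposited, other filters, floors and probe rules, array weights, slide or replicate number as a block, only the ages compared, and arrays left out. 2 were added after seeing the data: no scaling, and slide as a block, each without the 3 arrays of most background. Replicate numbers gave no sign of pairing the mice: deviations of same-numbered arrays correlated at -0.07 on average (24 pairs, -0.90 to 0.81, 11 over 0.1). Arrays of other numbers correlated at -0.0007 (72 pairs, 35 over 0.1). With so wide a range this check cannot exclude pairing. No 2 arrays were copies, with a highest Spearman's rho of 0.975 over 572 miRNAs.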

Additional observations from a re-analysis of the deposited data

Results flagged for a closer look

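Among 36 groups of 4 values (the 5 measured miRNAs and 4 measures of array quality at each of the 4 ages) 2 held a value far from the other 3, and chance alone gives about 1 in 20 groups, here 1.8. Negative-control spots had an SD of 3.54 on replicate 3 of the 8-week mice, against 1.82 to 2.01 on the other 8-week arrays. They had one of 59.3 on replicate 4 of the 36-week mice, against 2.76 to 4.39 on the other 36-week arrays; this is the array on which miR-142a-3p, miR-150-5p and miR-342-3p were not detected. No value of the 5 miRNAs themselves was far enough from the other 3 of its age to pass this limit.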

How the results depend on the processing

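Of the 5 measured miRNAs none passed any comparison with all 16 arrays weighted alike, under any scaling, signal, background correction, filter, floor, probe rule or block tried, or with any 1 array left out. Leaving out 1 array, the calls among the 285 ranged from 0 to 2 for any age, 1 to 2 for the slope, 0 to 3 for 58 against 4 weeks and 0 to 1 for 58 against 8 weeks, and were 0 in the other pairs. The 75th percentile over all miRNAs was not run, because it was not above 0 on at least 1 array. The cause of each change listed here was not tested.

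Among the 285, any age had 1 call, and 3 without scaling, 2 with every miRNA detected on at least 1 array, 4 with the brightest probe and 8 without the 3 arrays of most background (13 without scaling as well). It had 0 with quantile normalization, the deposited total signal, normexp, or slide or replicate number as a block, and 0 with slide as a block without the 3 arrays. The slope had 1 call, and 6 without scaling and 8 with the brightest probe, 0 with quantile normalization, the total signal, normexp and slide as a block (with or without the 3 arrays), 156 without the 3 arrays (3 of the 5) and 54 without scaling as well. The 58-to-4-week pair had 1 call, and 3 without scaling, 2 with the wider filter, 4 with the brightest probe or only the 2 ages compared, 35 without the 3 arrays and 65 without scaling as well. Of the 35, 2 were higher at 58 weeks, and of the 65, 0 were. The pair had 0 calls with quantile normalization, the total signal, normexp and the replicate block. The 8-to-4-week pair had 0, and 1 with the wider filter; the 58-to-8-week pair had 0, and 3 without scaling and the 3 arrays. With array weights, which did not fully converge, the counts were 218 for any age (3 of the 5), 187 for the slope (4), 177 for 58 against 4 weeks (3), 193 for 58 against 8 weeks (4) and 43 for 58 against 36 weeks (1, miR-342-3p at 0.86, adjusted p = 0.024, limma).

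With replicate number as a replicate block, 0 of the 5 passed in all 6 comparisons; the calls among the 285 went to 0 for any age and for 58 against 4 weeks, and the other counts moved by less than 1.5 times. The numbers gave no sign of pairing the mice.

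Signs turned as follows. The slope was -0.032 for miR-223-3p without scaling, and with slide as a block -0.15 for miR-142a-3p (-0.18 without the 3 arrays) and -0.43 for miR-150-5p. Without scaling, the 58-to-4-week differences were -0.13, -0.050, -0.38 and -0.10 for miR-223-3p, miR-142a-3p, miR-150-5p and miR-342-3p, but 0.19, 0.20, 0.16 and 0.31 without the 3 arrays as well. The 58-to-36-week difference of miR-150-5p, -0.19, was 0.74 with quantile normalization, 1.26 with the total signal, 0.23 with normexp, 0.082 with the brightest probe, 0.61 with array weights and 0.42 without the 3 arrays, with or without the slide; that of miR-142a-3p was -0.16 without scaling and the 3 arrays. The 8-to-4-week differences of miR-223-3p, miR-142a-3p, miR-150-5p and miR-342-3p, all below 0, were 0.17, 0.52, 0.80 and 0.41 with quantile normalization and 0.17, 0.091, 0.26 and 0.25 with normexp. For miR-223-3p and miR-342-3p they were 0.16 and 0.044 with the brightest probe, 0.21 and 0.28 with array weights (0.078 for miR-150-5p) and 0.10 and 0.069 without the 3 arrays, with or without the slide. For miR-146a-5p, at 0.70, the difference was -0.43 without the 3 arrays, with or without the slide, and -0.71 without scaling as well. With 1 array left out, the 8-to-4-week differences ranged from -0.36 to 0.52 for miR-223-3p, -0.82 to 0.032 for miR-150-5p and -0.35 to 0.21 for miR-342-3p, and the 58-to-36-week difference of miR-150-5p from -0.48 to 0.42.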
